A study of Homo sapiens with 9 samples.

Results

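The 10 genes described here are interferon beta (IFNB1) and the proteins that lead from double-stranded RNA to its transcription: the sensors IFIH1, RIGI, DHX58, EIF2AK2 and TLR3, the adaptor MAVS, the kinase TBK1 and the transcription factors IRF3 and IRF7. Members were the probe sets whose platform annotation named 1 of these genes and no other, with the older symbol DDX58 counted as RIGI. This gave 21 of the 54613 probe sets that are not Affymetrix controls. Of these, 17 probe sets from 8 genes were bright enough to be tested, and DHX58 and TLR3 had none that was.

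RNA came from HEK293 cells, a human embryonic kidney line, transiently transfected with a construct for surfactant protein C (SP-C, gene SFTPC), a secreted lung protein that these cells do not normally make. One group received a mutant form lacking exon 4 (Ex4), another the L188Q mutant (LQ) and the control group the wild-type form (WT). Each group had 3 arrays. All 9 arrays were therefore from transfected cells carrying an SFTPC construct, and no untransfected or empty-vector cells were analysed here. Separate cultures are not named for the replicates in the labels, and the p-values therefore reflect array-to-array spread that may be only technical.

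In human cells RIG-I (RIGI) and MDA5 (IFIH1) are cytosolic helicases that bind viral or other foreign double-stranded RNA and signal through the mitochondrial protein MAVS. MAVS activates TBK1, which phosphorylates IRF3 and IRF7, and these factors together with NF-kappaB switch on IFNB1. Secreted interferon beta then raises the expression of several of the same sensors, of EIF2AK2 and of IRF7, while MAVS, TBK1 and IRF3 are generally present at a steady level in resting cells.

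The promoters of IFNB1, IFIH1, RIGI and TBK1 are shown as those of the interferon gene itself, of the 2 main sensors and of a component whose values differed little between groups. RefSeq (GRCh38.p14) sequences of 250 bases before to 50 after the start site were matched for 7 of the 10 genes. Capitals mark matches on either strand to AANNGAAA, the core of the site bound by interferon regulatory factors (IRF), and to the NF-kappaB consensus site. The sequences run 5′ to 3′ on the gene's strand, at chr9:21077893-21078192, minus strand, for IFNB1, chr2:162318635-162318934, minus strand, for IFIH1, chr9:32526147-32526446, minus strand, for RIGI and chr12:64451870-64452169, plus strand, for TBK1.
IFNB1: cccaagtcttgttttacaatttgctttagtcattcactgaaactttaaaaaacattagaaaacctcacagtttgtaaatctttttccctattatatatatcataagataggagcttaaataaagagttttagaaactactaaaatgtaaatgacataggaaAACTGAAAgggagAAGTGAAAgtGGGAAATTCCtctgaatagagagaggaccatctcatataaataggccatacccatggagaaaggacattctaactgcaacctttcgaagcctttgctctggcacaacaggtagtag
IFIH1: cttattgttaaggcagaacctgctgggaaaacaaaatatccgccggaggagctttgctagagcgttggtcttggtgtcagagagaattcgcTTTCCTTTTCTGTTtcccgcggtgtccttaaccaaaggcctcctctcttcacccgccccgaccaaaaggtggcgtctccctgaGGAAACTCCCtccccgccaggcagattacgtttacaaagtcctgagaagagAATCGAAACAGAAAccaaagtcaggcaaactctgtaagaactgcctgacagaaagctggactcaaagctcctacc
RIGI: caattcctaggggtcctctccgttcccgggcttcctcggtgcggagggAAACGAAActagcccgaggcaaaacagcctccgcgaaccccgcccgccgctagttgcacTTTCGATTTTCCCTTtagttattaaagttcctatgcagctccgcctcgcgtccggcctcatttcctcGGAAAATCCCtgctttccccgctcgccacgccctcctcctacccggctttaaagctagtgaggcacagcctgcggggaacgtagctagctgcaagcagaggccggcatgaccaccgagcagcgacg
TBK1: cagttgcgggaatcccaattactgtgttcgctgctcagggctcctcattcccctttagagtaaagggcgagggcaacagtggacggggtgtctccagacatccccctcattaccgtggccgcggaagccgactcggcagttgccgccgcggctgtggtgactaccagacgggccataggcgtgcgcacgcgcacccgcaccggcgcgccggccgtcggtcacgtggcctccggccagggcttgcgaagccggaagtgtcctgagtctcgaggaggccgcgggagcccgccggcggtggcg
The NF-kappaB consensus occurred in 3 of the 7 promoters, those of IFNB1, IFIH1 and RIGI, against 11.3% of all 35116 RefSeq promoters of this length. In IFNB1 it lay at bases -66 to -57 from the start site, and in both IFIH1 and RIGI at -76 to -67 on the opposite strand. The IRF core occurred in 5 of the 7, those of IFNB1, IFIH1, RIGI, EIF2AK2 and TLR3, against 22.8% of all promoters, and no match overlapped one of the other motif. In IFNB1 there were 2 IRF cores, at -89 to -82 and -76 to -69, just ahead of the NF-kappaB match. IFIH1 had 4 IRF cores, in overlapping pairs at -159 to -146 and at -25 to -12, and RIGI had 3. Neither motif was found in the windows of TBK1 and MAVS. A match is a run of letters and no evidence of binding in these cells. The motif forms were settled after stricter ones had been tried, and TBK1 was picked for its values in these data. The counts and the contrast with TBK1 therefore carry no test.

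Some properties of the arrays bear on every value below. The trimmed mean of each array was the same by construction, but array medians were 316.1 to 434.3 for Ex4, 303.9 to 371.8 for LQ and 506.4 to 524.4 for WT. For GAPDH the 3′ over 5′ signal ratio, a sign of RNA quality, was 1.12 ± 0.14 in Ex4, 1.07 ± 0.015 in LQ and 1.30 ± 0.11 in WT, and for ACTB 1.35 ± 0.18 in Ex4, 1.18 ± 0.044 in LQ and 1.13 ± 0.12 in WT (SD, n = 3 each). SFTPC signal was high in every group on 38691_s_at, with 97700 to 172200 in Ex4, 118100 to 129000 in LQ and 160700 to 231100 in WT. It was also high in every group on 211735_x_at, with 97630 to 169200 in Ex4, 109000 to 132100 in LQ and 173200 to 262000 in WT. On another, 214387_x_at, it was 28.7 to 914.4 in Ex4, 108300 to 126200 in LQ and 159000 to 240000 in WT. Ex4 replicate 1, the highest Ex4 array on that probe set, had a mean correlation across probe sets of 0.906 with its own group and 0.911 with the WT arrays. All 7 genes listed as expressed by HEK293 cells were above the array median on all 9 arrays, although 1 of them, the kidney transcription factor PAX2, fell by 2.04 on the log2 scale in LQ (limma adjusted p = 0.025). The summed signal of 7 blood and immune markers was 1956 to 2186 in Ex4, 1735 to 2049 in LQ and 2948 to 3603 in WT. PTPRC, LYZ and CLEC4C were below the array median on all 9 arrays. CD79A was above it on all 9, ITGAM on 8, CD3D on 2 and CD14 on 1. The summed signal of 4 fibroblast markers was 4384 to 5824 in Ex4, 3055 to 4170 in LQ and 6194 to 7429 in WT, and COL1A1 among them fell by 0.96 in LQ (limma adjusted p = 0.028). COL1A1 made up most of that sum. LUM was below the array median on all 9 arrays, and DCN was above it on 1 and COL1A2 on 5. The calls of PAX2 and COL1A1 each held in 4 of the 9 fits that left out 1 array. Each was lost without any LQ array, WT replicate 2 or WT replicate 3, and without the variance trend. That of COL1A1 was also lost with median centring (-0.38, limma adjusted p = 0.3). The part of scaling, RNA quality, transgene level and these markers in the results was not tested.

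**Figure D1:**
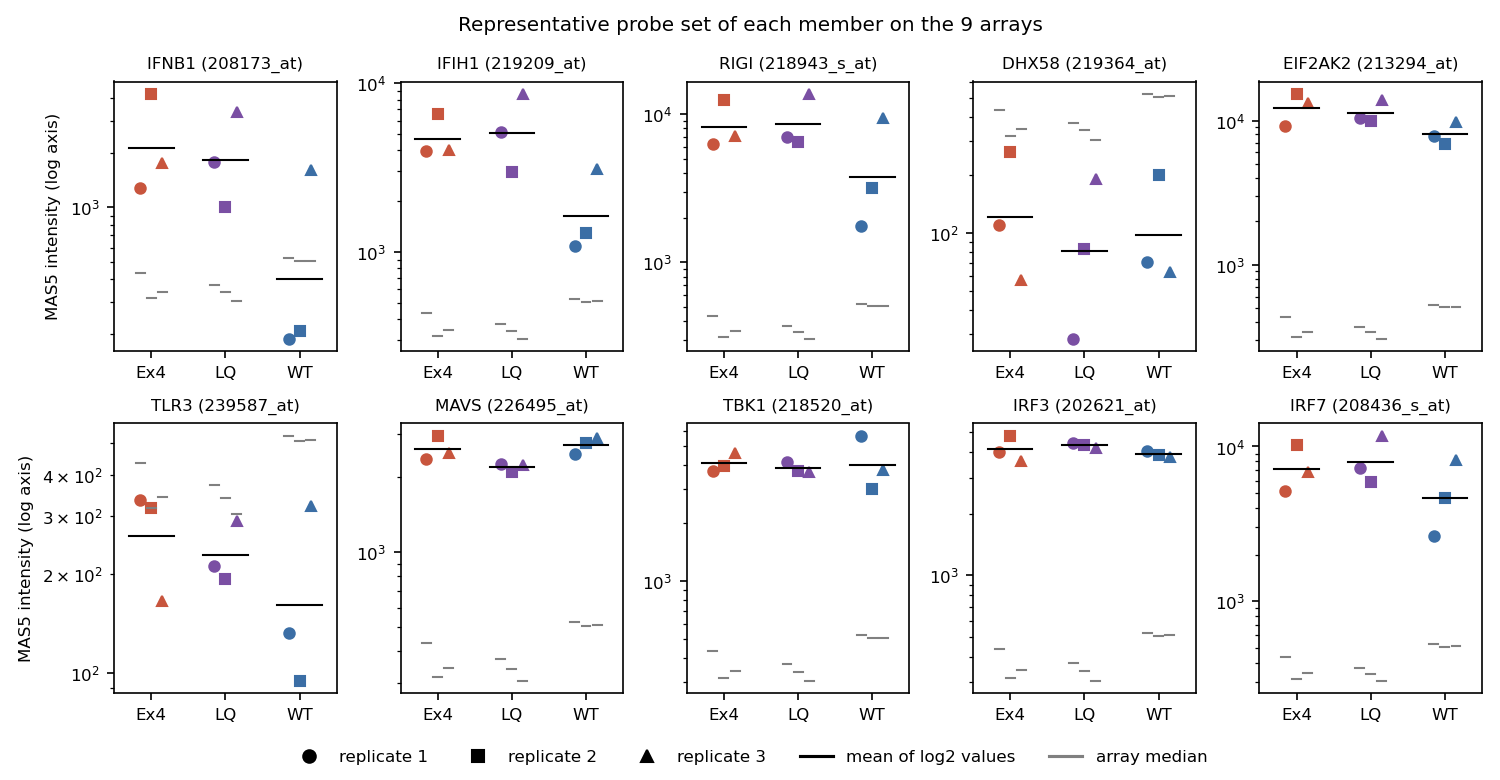
MAS5 intensity (log axis) of the representative probe set of each of the 10 genes on the Ex4, LQ and WT arrays, with the mean of the log2 values as a black line and each array's median as a grey tick. IFNB1, IFIH1, RIGI and IRF7 were lowest on WT replicate 1, whereas IRF3 lay between 3630.3 and 4796.4 on all 9 arrays and DHX58 was under the array median throughout.

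IFNB1, the interferon made by most cell types on contact with foreign RNA, differed widely between arrays of the same group. Its intensity on 208173_at was 1286.9, 4237.8 and 1753.2 on Ex4 replicates 1, 2 and 3. On the LQ replicates it was 1787, 1006 and 3346.9, and on the WT replicates 187.4, 207.6 and 1599.8. WT replicates 1 and 2 were below their array medians, all 6 mutant arrays were above WT replicates 1 and 2, and WT replicate 3 lay inside the range of both mutants. The means were 2426 ± 1586 in Ex4, 2047 ± 1192 in LQ and 664.9 ± 809.7 in WT (SD, n = 3 each). The fitted log2 change was 2.35 ± 0.72 for Ex4 against WT (SE, 5.11-fold, limma adjusted p = 0.099) and 2.13 ± 0.72 for LQ against WT (4.38-fold, adjusted p = 0.084), and neither passed the threshold of 0.05. Fold changes are on the scale of log2(intensity + 16), so those of dim probe sets are understated. In these bulk samples a larger share of cells making IFNB1 and more IFNB1 RNA per cell cannot be told apart. Between the mutants the difference, LQ minus Ex4, was -0.22 with a 95% interval of -1.79 to 1.35, so the arrays bound it only to within that range.

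The value for IFNB1 moved most when WT replicate 3 was left out. Without that array the log2 change was 3.33 for Ex4 and 3.11 for LQ, and without WT replicate 1 it was 1.83 and 1.61. For Ex4 it was 1.9 without WT replicate 2 and 1.86 without Ex4 replicate 2. IFNB1 passed the threshold for Ex4 in 1 of the 9 fits that each left out 1 array, the one without Ex4 replicate 1 (2.71, limma adjusted p = 0.046), and for LQ in none of the 9. The smallest adjusted p for LQ in those fits was 0.053, without WT replicate 3.

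IFIH1, which encodes MDA5, a sensor of long double-stranded RNA, was the 1 tested gene with a probe set called higher in a mutant with the deposited scaling. On 219209_at, its brightest probe set, the intensity was 3971.9, 6528 and 3997.1 on the Ex4 arrays, 5131.9, 2978.6 and 8652.1 on the LQ arrays and 1087, 1292.3 and 3111.1 on the WT arrays. All 3 Ex4 arrays were above all WT arrays, and the LQ and WT groups overlapped because LQ replicate 2 lay under WT replicate 3. The log2 change was 1.63 ± 0.42 for LQ against WT (SE, 3.09-fold, limma adjusted p = 0.044), with 5 of the 6 mutant arrays above every WT array. For Ex4 against WT it was 1.51 ± 0.42 (2.85-fold, adjusted p = 0.087), which did not pass, and LQ minus Ex4 was 0.12 with a 95% interval of -0.80 to 1.03. The LQ call was made in 2 of the 9 fits that left out 1 array, those without Ex4 replicate 1 or 2. It was lost without Ex4 replicate 3, any LQ array or any WT array, with the change between 1.25 and 2.09 over all 9 fits. It was also lost after quantile normalization (1.69, adjusted p = 0.056) and with array weights (1.09, adjusted p = 0.066), and at the same change with no variance trend (adjusted p = 0.085).

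The other 2 IFIH1 probe sets were not called. On 1555464_at the intensity was 1208, 775.9 and 431 in Ex4, 1196.6, 778.9 and 1273.9 in LQ and 389.1, 885.2 and 1851 in WT. WT replicate 3 was the brightest of the 9 arrays and WT replicate 1 the dimmest, and the log2 change was -0.22 for Ex4 and 0.29 for LQ (limma adjusted p = 0.82 and 0.74). On the dim probe set 216020_at the intensity was 326.3, 538.7 and 329.6 in Ex4, 246.9, 161.3 and 541.6 in LQ and 46.8, 270.4 and 513.1 in WT. WT replicate 1 was again the lowest array, and neither 0.93 for Ex4 nor 0.48 for LQ on the log2 scale passed (adjusted p = 0.44 and 0.69), with intervals of -0.65 to 2.51 and -1.10 to 2.06 that take in the changes on 219209_at.

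RIGI, which encodes RIG-I, a sensor of short double-stranded RNA with a 5′ triphosphate, had 2 bright probe sets that moved together over the arrays (Pearson r = 0.98 over 9 arrays) and another that did not. On 218943_s_at the intensity was 6277.8, 12401.2 and 7164.4 in Ex4, 7005.7, 6467.5 and 13699.4 in LQ and 1747.9, 3187.1 and 9403.5 in WT. All 6 mutant arrays exceeded WT replicates 1 and 2, while WT replicate 3 exceeded 4 of them. The log2 change was 1.13 ± 0.50 for Ex4 (SE, limma adjusted p = 0.19) and 1.18 ± 0.50 for LQ (adjusted p = 0.14), and it ranged from 0.59 without WT replicate 1 to 1.79 without WT replicate 3 for Ex4, and from 0.64 to 1.85 for LQ without the same arrays. On 222793_at the intensity was 4948.4, 6910.7 and 4667.8 in Ex4, 5324.4, 4748.1 and 8227.1 in LQ and 1546, 3251.6 and 6969.1 in WT. The order of the arrays was close to that of the first probe set, and the log2 changes of 0.73 and 0.85 did not pass (adjusted p = 0.30 and 0.20).

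The third RIGI probe set, 242961_x_at, went the other way. Its intensity was 1226.2, 1063.4 and 1207.4 in Ex4, 643.3, 770.9 and 628.6 in LQ and 1880.1, 1076.5 and 1562.4 in WT. All LQ arrays were below all Ex4 and all WT arrays. It fell by 1.10 ± 0.26 on the log2 scale in LQ against WT (SE, 2.14-fold, limma adjusted p = 0.035). For Ex4 the change was -0.33 (adjusted p = 0.44). LQ minus Ex4 was -0.76 with a 95% interval of -1.33 to -0.20, and its adjusted p over all probe sets was 0.9999. The suffix x in the name marks a probe set with probes that also match other sequences, so its signal may not come from RIGI alone. Its call was lost after quantile normalization (-0.82, adjusted p = 0.092) and with median centring of the arrays (-0.51, adjusted p = 0.19), and at the same change with no variance trend (adjusted p = 0.0535). It held in 4 of the 9 fits that left out 1 array and was lost without any LQ array, WT replicate 2 or WT replicate 3.

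DHX58 encodes LGP2, the third helicase of the family, which lacks the signalling domains of the other 2 and modulates them. Its 1 probe set, 219364_at, gave 110.3, 261.4 and 57.3 in Ex4, 28.2, 82.7 and 190.1 in LQ and 70.5, 198.4 and 63.1 in WT. All 9 values were under the array median and the 3 groups overlapped. It lay below the mean level required for testing, and in the fit without that requirement the log2 change was 0.27 ± 0.73 for Ex4 and -0.24 ± 0.73 for LQ (SE, limma adjusted p = 0.86 and 0.87). TLR3, the endosomal receptor for double-stranded RNA, was also dim. Its brightest probe set, 239587_at, gave 335.9, 316.9 and 166.1 in Ex4, 212, 193 and 290 in LQ and 132.5, 94.7 and 321.3 in WT, and it was above the array median on 1 of the 9 arrays. Its other 2 probe sets were above the array median on 2 arrays and on none. The log2 changes of the 3 TLR3 probe sets, fitted without the level requirement, were between -0.71 and 0.89 for Ex4 and between 0.31 and 1.69 for LQ, and the smallest adjusted p was 0.28.

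EIF2AK2 encodes PKR, a kinase that binds double-stranded RNA and phosphorylates eIF2alpha to slow translation. On its brightest probe set, 213294_at, the intensity was 9161.3, 15329.8 and 13133.4 in Ex4, 10385.7, 9964 and 13942.4 in LQ and 7771, 6904.5 and 9698.2 in WT. Every LQ array was above every WT array, and Ex4 replicate 1 alone among the mutant arrays was below WT replicate 3. The log2 change was 0.61 ± 0.22 for Ex4 (SE, limma adjusted p = 0.12) and 0.49 ± 0.22 for LQ (adjusted p = 0.16). Without Ex4 replicate 1 the Ex4 value was 0.82 (adjusted p = 0.026). On 204211_x_at, also of the x type, the intensity was 3684.3, 5703.8 and 6489.7 in Ex4, 6850.1, 5206.3 and 6986.2 in LQ and 5492.2, 5728.1 and 3401.1 in WT. The groups overlapped there, and the log2 change was 0.12 for Ex4 and 0.41 for LQ (adjusted p = 0.81 and 0.31).

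The third EIF2AK2 probe set, 242898_at, was lower in LQ. It gave 5393.1, 1843.4 and 2290 in Ex4, 1729.7, 1409.9 and 2576 in LQ and 4151.8, 4157.1 and 6342.2 in WT. All LQ arrays were below all WT arrays, and 2 of the 3 Ex4 arrays were. It fell by 1.37 ± 0.36 on the log2 scale in LQ against WT (SE, 2.58-fold, limma adjusted p = 0.046), and for Ex4 the change was -0.75 ± 0.36 (adjusted p = 0.22). The LQ call was lost after quantile normalization (-1.42, adjusted p = 0.053) and with median centring (-0.78, adjusted p = 0.099), and at the same change with no filter (adjusted p = 0.054) and with no variance trend (adjusted p = 0.088). It held in 3 of the 9 fits that left out 1 array and was lost without Ex4 replicate 3, any LQ array, WT replicate 2 or WT replicate 3. Over the 9 arrays this probe set had Pearson r = -0.54 with 213294_at, and the corresponding value for the third RIGI probe set with the first was -0.53, so the probe sets of each gene do not give 1 direction.

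**Figure D2:**
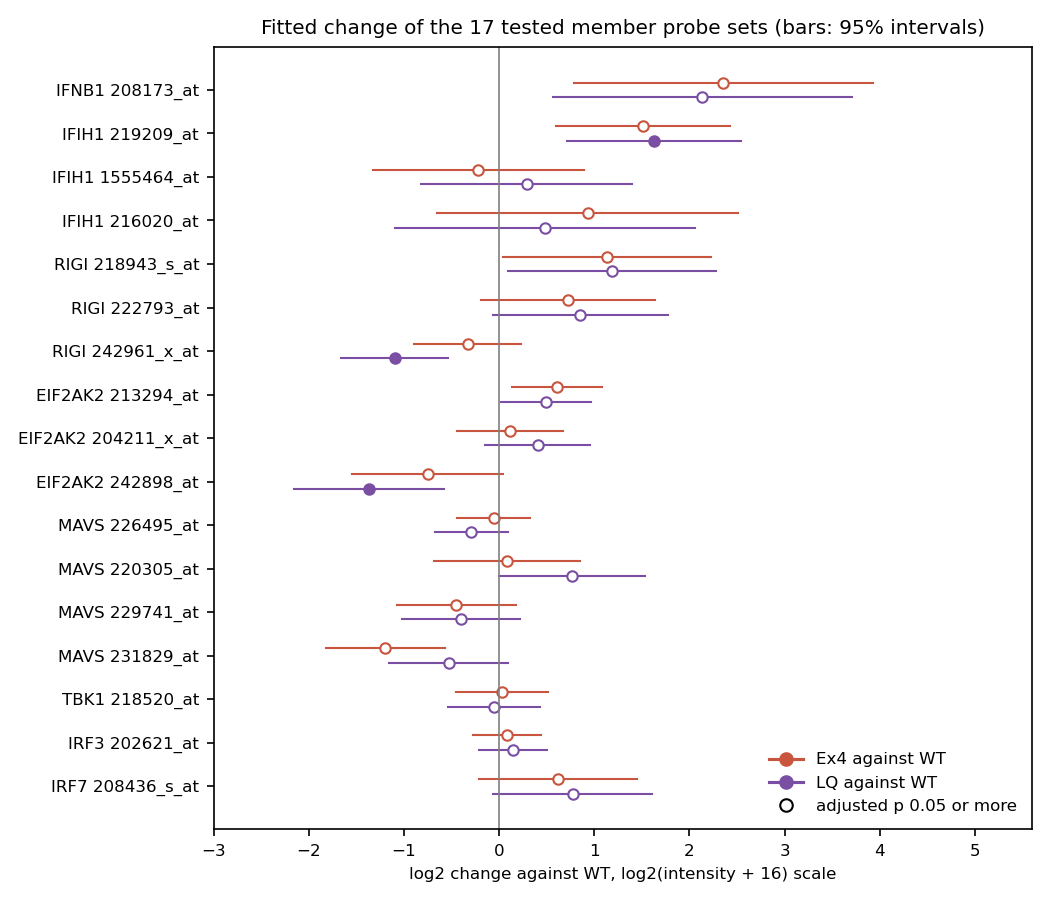
Fitted log2 change of the 17 tested probe sets for Ex4 against WT and for LQ against WT, with 95% intervals and filled points where the adjusted p was under 0.05. Filled points mark 219209_at of IFIH1 (1.63), 242961_x_at of RIGI (-1.10) and 242898_at of EIF2AK2 (-1.37), all in LQ.

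MAVS, the mitochondrial adaptor on which RIG-I and MDA5 converge, had 4 tested probe sets and no call. On the brightest, 226495_at, the intensity was 2363.5, 2938 and 2505 in Ex4, 2253.2, 2094.9 and 2250.4 in LQ and 2484.3, 2740 and 2880.9 in WT. The LQ arrays were below all WT and all Ex4 arrays, but the distance was small, with a log2 change of -0.29 for LQ (95% interval -0.68 to 0.09, limma adjusted p = 0.29) and of -0.06 for Ex4 (interval -0.44 to 0.33). On 231829_at it was 609.1, 472 and 559.8 in Ex4, 969.7, 1106.4 and 614 in LQ and 1062.6, 1373.2 and 1391.4 in WT. All Ex4 arrays were below all WT and all LQ arrays there, with a log2 change of -1.20 ± 0.29 for Ex4 (SE, adjusted p = 0.077) and -0.53 ± 0.29 for LQ (adjusted p = 0.24). This Ex4 value passed the threshold without Ex4 replicate 1 (-1.27, adjusted p = 0.024) and without WT replicate 1 (-1.32, adjusted p = 0.025).

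The remaining 2 MAVS probe sets differed from both. On 220305_at the intensity was 687.9, 2155.5 and 1517.3 in Ex4, 2051.7, 2213.2 and 2096.8 in LQ and 1061.4, 1090.2 and 1645.7 in WT. The LQ arrays were tightly grouped above all WT arrays, and the Ex4 arrays spread across the WT range, with log2 changes of 0.77 for LQ and 0.08 for Ex4 (limma adjusted p = 0.18 and 0.91). On 229741_at the values were 808.6 to 995.6 in Ex4, 795.4 to 1127.7 in LQ and 964.1 to 1785.7 in WT, with log2 changes of -0.45 and -0.40 (adjusted p = 0.35 and 0.37). Pearson r between the brightest MAVS probe set and the others was between -0.13 and 0.33 over 9 arrays.

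TBK1, the kinase that phosphorylates IRF3, had 1 probe set, 218520_at, with 3751.1, 3945.5 and 4618.6 in Ex4, 4165.1, 3720 and 3686.7 in LQ and 5680.7, 2998 and 3754 in WT. WT replicates 1 and 2 were the highest and the lowest of the 9 arrays, and both mutants lay between them. The log2 change was 0.03 for Ex4 (95% interval -0.45 to 0.52) and -0.05 for LQ (interval -0.54 to 0.43). IRF3, the factor that TBK1 activates first, had 4012.8, 4796.4 and 3630.3 on 202621_at in Ex4, 4435, 4345.6 and 4167 in LQ and 4063.8, 3860.6 and 3759.7 in WT. The LQ arrays were all slightly above the WT arrays, and the log2 change was 0.08 for Ex4 (interval -0.27 to 0.44) and 0.15 for LQ (interval -0.21 to 0.50), so each interval leaves out a 2-fold difference in either direction. The WT arrays spanned only 0.11 on the log2 scale for IRF3, at percentile 2.47 of all tested probe sets.

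IRF7, the interferon-inducible partner of IRF3, had 5184.9, 10260.4 and 6853.5 on 208436_s_at in Ex4, 7217.1, 5896.8 and 11724.2 in LQ and 2641, 4618.3 and 8187.1 in WT. As with RIGI, all 6 mutant arrays were above WT replicates 1 and 2, and 4 of the 6 were below WT replicate 3. The log2 change was 0.62 ± 0.38 for Ex4 (SE, limma adjusted p = 0.33) and 0.77 ± 0.38 for LQ (adjusted p = 0.20). It was 1.03 and 1.18 without WT replicate 3, and 0.22 and 0.37 without WT replicate 1.

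Counted over the 17 tested probe sets, Ex4 against WT gave 0 calls by limma, where 0.0122% of all 32768 tested probe sets were called. At an unadjusted p under 0.05 there were 5 of 17 for Ex4, against 24.9% of all. LQ against WT gave 3 calls, against 6.81% of all, of which 1 was higher (3.09% of all) and 2 were lower (3.72% of all). At an unadjusted p under 0.05 there were 6 of 17 for LQ, against 28.9%. LQ against Ex4 gave 0 calls by limma, against 0.0061% of all, and 2 of 17 at an unadjusted p under 0.05, against 4.1%. Groups that did not overlap were about as common as among all probe sets. For Ex4 against WT, 1 probe set was above on every array (7.48% of all) and 1 below (15% of all). For LQ against WT, 3 were above (13.1%) and 3 below (24.2%), and for LQ against Ex4, 1 was above (5.62%) and 2 below (6.34%). The median log2 change of the 17 was 0.08 for Ex4 and 0.41 for LQ, against -0.12 and -0.15 over all tested probe sets. The sign was positive for 11 of 17 in both, against 40.9% and 40.8% of all. The Ex4 and LQ comparisons share the WT arrays, so the values of the one do not repeat those of the other.

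These counts depended on how the arrays were scaled to each other. Centring each array on its median moved the median of all tested probe sets to 0.37 for Ex4 and 0.44 for LQ, and the members' medians to 0.57 and 0.99. IFNB1 then passed the threshold in both mutants, at 2.84 for Ex4 (limma adjusted p = 0.022) and 2.72 for LQ (adjusted p = 0.015). With that centring 4 of 17 probe sets were called in Ex4 and 9 in LQ, all higher, when 15.6% and 25.8% of all probe sets were called. After quantile normalization the medians of all probe sets were 0.02 and 0.04, the members' medians were 0.13 and 0.32, and no member was called in LQ, against 3.52% of all probe sets. The sign was then positive for 9 of 17 in Ex4, against 51.6% of all, and for 11 of 17 in LQ, against 52.8%. With median centring it was positive for 15 of 17 in both, against 71.9% and 73.6%.

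The spread within WT was itself large for IFNB1, IFIH1, RIGI and IRF7. WT replicate 3 exceeded WT replicate 1 by 2.99 on the log2 scale for IFNB1 (8.54-fold), by 1.50 for IFIH1, by 2.42 for RIGI and by 1.63 for IRF7, on their brightest probe sets. These differences lay at percentiles 99.8, 97.5, 99.4 and 98 of all tested probe sets. For EIF2AK2, also induced by interferon, the difference was 0.32, and it was 0.21 for MAVS, -0.60 for TBK1 and -0.11 for IRF3. Over the 17 probe sets, WT replicate 3 was more than 2-fold above WT replicate 1 on 7, against 6.36% of all. On 7 of the 17 the lowest array was WT replicate 1, against 10.1% of all, on 7 after quantile normalization, against 13.2%, and on 8 with median centring, against 23.3%. The WT range was larger than the change on 13 of 17 for Ex4, against 70.2% of all, and on 9 of 17 for LQ, against 66.6%.

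**Figure D3:**
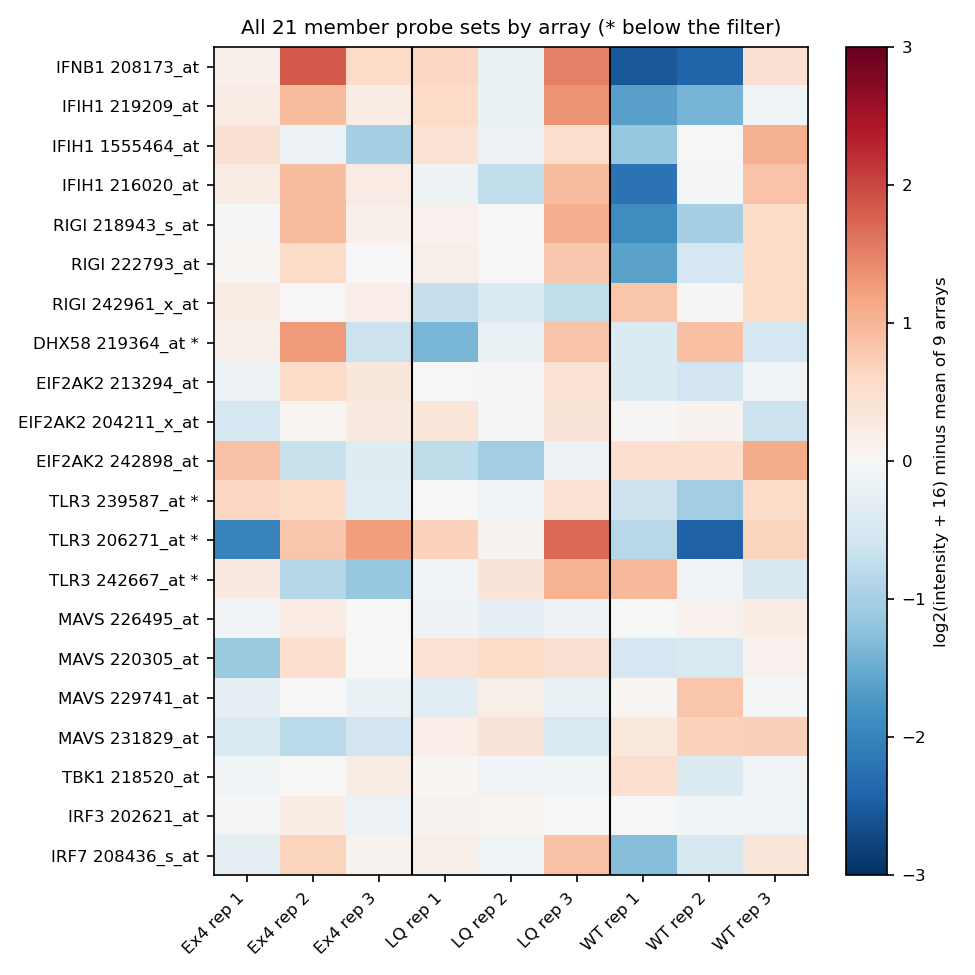
Deviation of each of the 21 probe sets from its own mean over the 9 arrays, as log2(intensity + 16), with Ex4, LQ and WT arrays in columns and an asterisk for the 4 probe sets that were too dim to test. WT replicate 1 was the lowest array on 7 of the 17 tested probe sets, all of IFNB1, IFIH1, RIGI and IRF7, and WT replicate 3 was more than 2-fold above it on the same 7.

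A pattern noticed after the values were seen is that all 6 mutant arrays were above WT replicates 1 and 2. It held on 6 of the 17 probe sets, against 7.31% of all, and on the same 6 they were not all above WT replicate 3 (1.85% of all): IFNB1, 219209_at of IFIH1, the 2 bright ones of RIGI, 213294_at of EIF2AK2 and IRF7. The mutant groups also had a high array each. Ex4 replicate 2, LQ replicate 3 and WT replicate 3 were each the highest of their own group on 7 of 17, against 4.73% of all, a count likewise chosen after the values were seen. LQ replicate 3 was the highest of all 9 arrays on 6 of 17 (6.6% of all), and Ex4 replicate 2 on 4 (8.58% of all). The median log2 range within a group was 0.71 in Ex4, 0.70 in LQ and 0.88 in WT for the members, against 0.64, 0.43 and 0.66 for all tested probe sets.

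**Figure D4:**
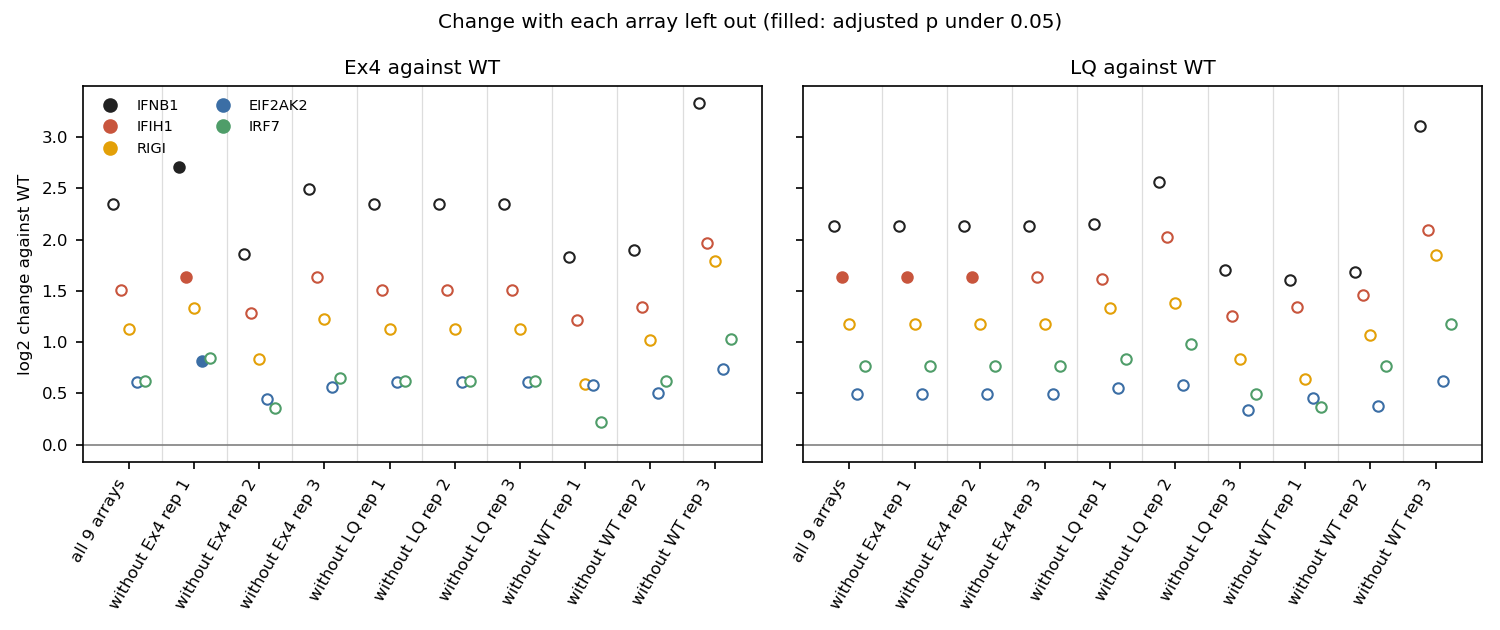
Log2 change of IFNB1, IFIH1, RIGI, EIF2AK2 and IRF7 on their brightest probe sets, for Ex4 against WT and LQ against WT, with all 9 arrays and with each array left out, filled where the adjusted p was under 0.05. The IFNB1 value for Ex4 lay between 1.83 without WT replicate 1 and 3.33 without WT replicate 3, and all values drawn stayed above 0. MAVS, TBK1 and IRF3 are not drawn, and on their brightest probe sets the Ex4 values were -0.15 to 0.01, -0.18 to 0.28 and -0.03 to 0.17. Also not drawn are the dimmer probe sets of IFIH1, RIGI and EIF2AK2, some with values under 0, such as -0.78 to 0.32 for Ex4 on 1555464_at of IFIH1.

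The genes whose log2 values followed IFNB1 most closely over the 9 arrays, of 14017 other tested genes, were IFI44 (Pearson r = 0.977), IFIH1 (0.969), EPSTI1 (0.962), RIGI (0.958) and HERC5 (0.958). IFI44, for example, had 1265, 3620 and 2596 in Ex4, 1726, 1427 and 3285 in LQ and 289.7, 432.7 and 1422 in WT. For IFIH1 the closest were SURF2 (0.982), IFNB1 (0.969), DDX60 (0.961), IFI44 (0.954) and HERC5 (0.954). All but SURF2, a gene of the surfeit cluster, are known interferon-induced genes or members described above. Among the members, IRF7 had r = 0.912 with IFNB1 and EIF2AK2 0.91, whereas IRF3 had 0.377, MAVS -0.023 and TBK1 -0.121. The 9 points share 3 groups and the scaling of whole arrays, so these are descriptions of the arrays and carry no test.

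**Figure D5:**
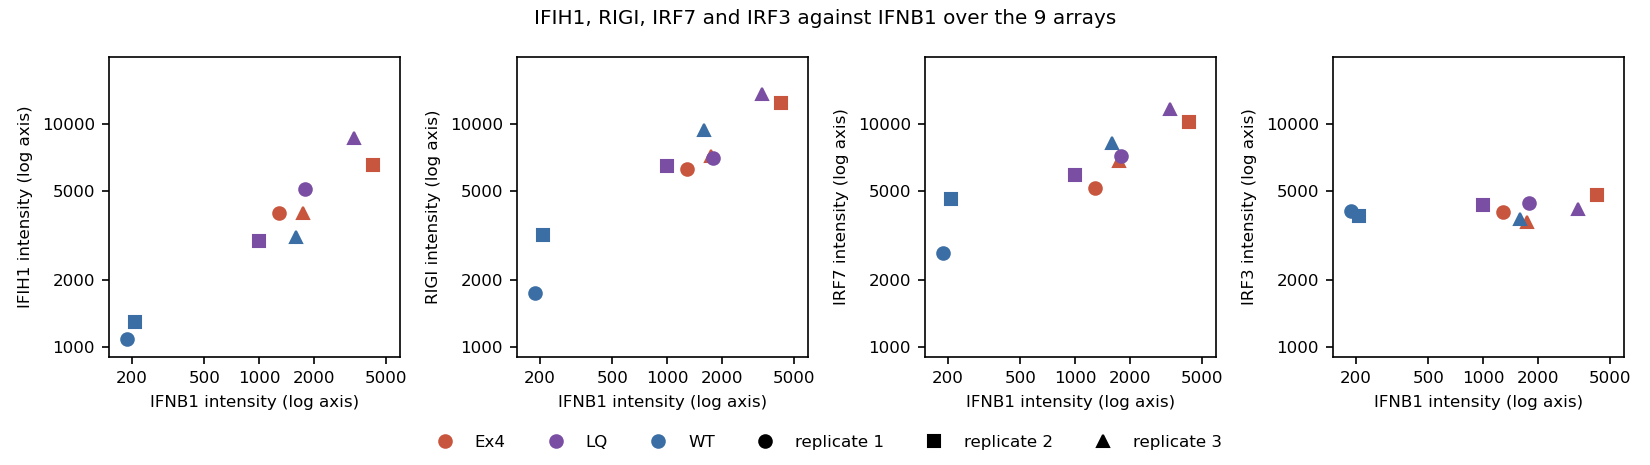
Intensity of IFIH1, RIGI, IRF7 and IRF3 (vertical log axes) against IFNB1 (horizontal log axis) on the 9 arrays, with colour for Ex4, LQ or WT and shape for the replicate number. The first 3 genes had Pearson r of 0.969, 0.958 and 0.912 with IFNB1 on the log2 scale, with WT replicates 1 and 2 at the low end, and IRF3 had 0.377.

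Other genes of the pathway were counted on 1 probe set each, the brightest, for which the median log2 change over all 14018 tested genes was -0.08 for Ex4 and -0.09 for LQ. Of 22 tested signalling partners of RIG-I and MDA5, none was called for Ex4 by limma, where 0 of all genes were called, and 9 had an unadjusted p under 0.05 (27.2% of all). For LQ 2 were called higher and 1 lower, where 7.32% of all genes were called. With median centring 7 of the 22 were called in Ex4 and 9 in LQ, all higher, against 19.3% and 30.2% of all genes. After quantile normalization 0 were called in Ex4 and 2 in LQ, both higher, against 0% and 3.41% of all genes. TNFAIP3, which encodes the deubiquitinase A20, a brake on NF-kappaB and IRF3 signalling, had 5613.4, 3679.1 and 2439 in Ex4, 6836.1, 5503.7 and 6378.1 in LQ and 2085, 3161.2 and 2751 in WT. Its log2 change was 1.24 ± 0.27 for LQ (SE, adjusted p = 0.031) and 0.49 for Ex4 (adjusted p = 0.28). CYLD, another deubiquitinase that restrains RIG-I, rose by 0.96 ± 0.23 in LQ (adjusted p = 0.037), and all LQ arrays, at 2816.2 to 3435.5, exceeded the WT arrays at 1417.3 to 2005.1. TICAM1, which encodes TRIF, the adaptor of TLR3, fell by 1.32 ± 0.31 in LQ (adjusted p = 0.035), to 445.6, 464.1 and 385.4 in LQ against 958.4, 1186.7 and 1162 in WT. Its LQ call was lost after quantile normalization (-0.92, adjusted p = 0.083) and with median centring (-0.74, adjusted p = 0.083), while TNFAIP3 passed in both (1.19 and 1.82, adjusted p = 0.045 and 0.002). Each of these 3 calls held in 4 of the 9 fits that left out 1 array and was lost without any LQ array, WT replicate 2 or WT replicate 3. Those of TNFAIP3 and CYLD were also lost without the variance trend, and that of TICAM1 with no filter.

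The proteins that assemble with IRF3 and IRF7 on the IFNB1 promoter, 7 of 7 tested, gave no call in either mutant with the deposited scaling. With median centring 3 of the 7 were called in Ex4 and 5 in LQ, all higher, against 19.3% and 30.2% of all genes. After quantile normalization none was called in either mutant, against 0% and 3.41% of all genes. ATF2, which binds there with JUN, had a log2 change of 0.96 ± 0.29 for Ex4 and 0.62 ± 0.29 for LQ (limma adjusted p = 0.097 and 0.18). RELA, the p65 subunit of NF-kappaB, had -0.63 ± 0.23 for Ex4 (adjusted p = 0.13) and the coactivator EP300 0.57 ± 0.28 for LQ (adjusted p = 0.21). Of the other interferon regulatory factors 5 were tested, IRF1, IRF2, IRF4, IRF5 and IRF8, and none was called. Their median log2 change was -0.76 for Ex4 and -0.61 for LQ. None was positive in either, where 43.6% of all genes were, and IRF1 was at 0 for Ex4 after rounding. Centred on the array median, IRF5 had -0.25 for Ex4 and -0.02 for LQ, IRF4 had -0.67 for Ex4 and IRF8 had -0.09 for LQ.

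Other interferon genes were mostly dim. Of 14 with a probe set, 10 were below the array median on all 9 arrays. The 3 that were tested gave no call with the deposited scaling. With median centring 1 was called higher in each mutant, against 19.3% of all genes in Ex4 and 30.2% in LQ. After quantile normalization none was called in either mutant, against 0% and 3.41% of all genes. IFNL1, a lambda interferon that acts mainly on epithelial cells, had 3907.8, 4932.9 and 2222.7 in Ex4, 3730.7, 1903.5 and 4013.4 in LQ and 1113, 1957.2 and 3371.7 in WT. IFNL2, its close relative, had 1009.7, 3186.2 and 1345.6 in Ex4, 1050.7, 677.3 and 1747.8 in LQ and 196.3, 600.4 and 1627.2 in WT. The lowest value for both was that of WT replicate 1, and the log2 changes were 0.84 and 1.46 for Ex4 (limma adjusted p = 0.23 and 0.19) and 0.65 and 0.87 for LQ (adjusted p = 0.32 and 0.39). IFNA4, on a probe set of the x type, had 355.5, 271.7 and 435.1 in Ex4, 180.8, 102.3 and 132.6 in LQ and 377.8, 59.1 and 571.2 in WT, lowest on WT replicate 2, with log2 changes of 0.49 for Ex4 and -0.78 for LQ.

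Of 18 tested genes induced by interferon or directly by IRF3, none was called by limma in either mutant, with 7 in each at an unadjusted p under 0.05 (27.2% and 30.6% of all genes). The sign was positive for 17 in Ex4 and 18 in LQ, against 43.6% of all genes in each. Their median log2 change was 1.05 for Ex4 and 1.23 for LQ. IFIT2, which binds foreign RNA, had 17412, 28731 and 16943 in Ex4, 30512, 18338 and 44528 in LQ and 2193.4, 6123.8 and 22721 in WT. Its log2 change was 1.59 ± 0.63 for Ex4 (limma adjusted p = 0.15) and 2.11 ± 0.63 for LQ (adjusted p = 0.060), and WT replicate 3 was again the highest WT array. The chemokine CCL5 had 1.43 ± 0.41 for LQ (adjusted p = 0.056). With median centring 4 of the 18 were called in Ex4 and 10 in LQ, all higher, against 19.3% and 30.2% of all genes, among them IFIT2 at 2.08 for Ex4 and 2.70 for LQ (adjusted p = 0.037 and 0.0081). After quantile normalization none of the 18 was called in either mutant, against 0% and 3.41% of all genes. IFIT2 then had 1.53 for Ex4 and 2.07 for LQ (limma adjusted p = 0.20 and 0.084). For 15 of these 18 genes the lowest array was WT replicate 1, against 12.7% of all genes, and Ex4 replicate 2, LQ replicate 3 and WT replicate 3 were each the highest of their group for 14 of 18, against 6.79%.

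No gene of the remaining pathway lists was called with the deposited scaling. With median centring the calls in Ex4 and LQ, all higher, were 3 and 4 for the double-stranded RNA effectors. They were 1 and 5 for the other eIF2alpha kinases and their targets, and 0 and 1 for the DNA sensors and other receptors. The interferon receptor list had 0 in both, and the share of all genes was 19.3% and 30.2%. After quantile normalization no gene of these remaining lists was called in either mutant, against 0% and 3.41% of all genes. Of the interferon receptor chains, their kinases and their regulators, 7 genes were tested (IFNAR1, IFNAR2, JAK1, TYK2, IRF9, SOCS1 and USP18), with medians of 0.11 for Ex4 and -0.10 for LQ. Of the DNA sensors and other nucleic acid receptors, 5 of 8 were tested, with medians of -0.42 and -0.45, and CGAS, the cytosolic DNA sensor, had -1.06 ± 0.35 for LQ (limma adjusted p = 0.079). Of the double-stranded RNA effectors, 7 were tested, with medians of 0.38 and 0.30, and STAU1, a double-stranded RNA binding protein of RNA transport and decay, had 0.46 ± 0.15 for LQ (adjusted p = 0.072). Of the other eIF2alpha kinases and their targets, 7 were tested, with medians of -0.09 and 0.19. EIF2AK3, which encodes PERK, the eIF2alpha kinase of the endoplasmic reticulum, had 0.65 ± 0.21 for Ex4 and 0.64 ± 0.21 for LQ (adjusted p = 0.11 and 0.078).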

How the data were processed

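RNA of the 9 samples was measured on 1 Affymetrix array each. The authors deposited a linear intensity for every probe set and array, computed with MAS5 per the submitters' processing notes, in a version that the sources used here do not name. Of 54675 probe sets, 62 controls were left out. Detection calls were not used here. Values were used as log2(intensity + 16) with the deposited scaling. Tests covered the 32768 probe sets whose mean log2 level reached percentile 40 (7.89). The number of arrays limits the precision.

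All 9 arrays entered 1 linear model in limma (version 3.58.1, R 4.3.3), moderated by empirical Bayes with a trend in the variance. P-values are two-sided and were adjusted by Benjamini-Hochberg over all tested probe sets of a contrast, with 0.05 as threshold. The model was also run on simulated data, with results that are not given here. The brightest probe set by mean log2 value stood for a gene. The text names the 10 members, the 5 genes most correlated with IFNB1 and with IFIH1, and members of 9 pathway lists (104 genes) with the 2 smallest adjusted p in each mutant, a selection of which is printed; CYLD, COL1A1, PAX2, IFNA4, the 7 interferon receptor genes and the individual IRF genes were added after their values were seen. The members and lists were chosen with earlier results of these data known.

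Alternatives were pseudocounts of 1 and 64, quantile normalization, median centring, no filter, filtering at percentile 60, a fit with no trend, a fit of only the arrays compared, array weights, a 2-fold minimum, each array left out, and the replicate number as a block. Deviations of same-numbered arrays correlated at -0.083 to 0.19 and those of differently numbered arrays at -0.23 to 0.16. Between LQ and WT the ranges were 0.074 to 0.17 for the same number and -0.13 to 0.035 for different numbers. All of these were low, and the numbers were not taken to pair the samples. Promoter motifs were searched on both strands, in forms settled after stricter ones had been tried.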

Additional observations from a re-analysis of the deposited data

How the results depend on the processing

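The count of called member probe sets in Ex4 against WT was 0 in limma with the deposited scaling (0.0122% of all tested probe sets called), 4 with median centring (15.6%), 2 with array weights (16.1%) and 0 to 5 with 1 array left out, with 5 without Ex4 replicate 1 (13.5%) and 1 without WT replicate 1 (11.2%). In LQ against WT it was 3 (6.81%), and 0 after quantile normalization (3.52%), 9 with median centring (25.8%), 0 without the variance trend (1.35%), 2 with no filter (2.81%) and 2 with array weights (26.2%). With 1 array left out it was 0 to 4, with 4 without Ex4 replicate 1 (13.4%), 1 without Ex4 replicate 3 (5.72%), 2 without WT replicate 1 (15.2%) and 0 without any LQ array, WT replicate 2 or WT replicate 3 (0.0244% to 0.18%). The counts for LQ against Ex4 were 0 in every setting. The replicate block left the 3 counts at 0, 3 and 0, and the paired fit changed no call.

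Some single log2 changes, none of them past the threshold with the deposited scaling, changed sign in limma. For Ex4 against WT, IFIH1 on 1555464_at became 0.13 after quantile normalization and 0.27 with median centring, and -0.78 to 0.32 with 1 array left out; RIGI on 242961_x_at became 0.16 with median centring. EIF2AK2 on 204211_x_at became 0.00 after quantile normalization and -0.12 to 0.36 with 1 array left out. MAVS became 0.43 on 226495_at and 0.04 on 229741_at with median centring, and with 1 array left out -0.15 to 0.01 on 226495_at and -0.27 to 0.54 on 220305_at. After quantile normalization TBK1 became -0.06 and IRF3 -0.01, with -0.18 to 0.28 and -0.03 to 0.17 when 1 array was left out. For LQ against WT, array weights gave -0.29 on 1555464_at and -0.35 on 216020_at of IFIH1, which lay at -0.27 to 0.83 and -0.39 to 1.14 with 1 array left out. Median centring gave MAVS 0.29, 0.18 and 0.05 on 226495_at, 229741_at and 231829_at, and TBK1 0.53, while array weights gave TBK1 0.04 and leaving out 1 array -0.26 to 0.20. For LQ against Ex4, array weights gave -0.10 for IFIH1 on 219209_at, -0.12 for RIGI on 218943_s_at and -0.05 for IRF7, and median centring gave 0.01 for TBK1. With 1 array left out that difference was -0.66 to 0.27 for IFNB1, -0.26 to 0.50 for IFIH1, -0.29 to 0.35 and -0.11 to 0.30 for RIGI, and -0.33 to 0.04 for EIF2AK2 on 213294_at. It was -0.10 to 0.15 for MAVS on 229741_at, -0.15 to 0.00 for TBK1, -0.02 to 0.18 for IRF3 and -0.13 to 0.41 for IRF7. The cause of these changes was not tested. A lone array left out of a group assumes that the other 2 vary like the rest.

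With 3 arrays per group, the change of IFNB1 did not reach the threshold, and without WT replicate 3 it did not either (adjusted p = 0.16 for Ex4 and 0.053 for LQ). DHX58, TLR3 and most other interferon genes lay below the mean level required for testing. The deposited values carry no culture, day or batch, so WT replicate 3 could not be set against any of these, and the different array medians of mutant and WT groups cannot be told apart from the groups.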
